A study of Neurospora crassa with 2 samples.

Results

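In Neurospora crassa mycelia given cellobiose, 160 well expressed genes had RNA levels 2 to 4-fold lower in a strain without ncw-1 than in a strain that keeps it. They were chosen from 9726 genes, the table of 9730 without the 4 deleted genes, by the values themselves. A member had at least 50 RPKM (a read count divided by gene model length and library size) in one or the other library. Its log2 ratio (Δ3βGΔncw-1 over Δ3βG, after adding 1 to each RPKM) was −1 or less and above −2. Of 2023 genes at that level, the members were 7.91%. Another 80 (3.95%) were at least 4-fold lower, which makes 240 (11.9%) at least 2-fold lower, and 134 (6.62%) were 2 to 4-fold higher of 268 (13.2%) at least 2-fold higher. Any lower value at all was found for 60.8% of these 2023 genes. Since the ratio chose the members, their lower level is a description and not a finding.

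Both strains carry deletions of gh1-1, gh3-3 and gh3-4, which encode the β-glucosidases that split cellobiose into glucose. Δ3βG is labelled with no other change, and Δ3βGΔncw-1 also lacks ncw-1, the gene of a non-anchored cell wall protein. Each genotype label also carries the letter a. Mycelia were precultured for 20 h in MM (the labels' name for the first medium) and moved to Vogel's salts with 1% cellobiose for 4 h, with 1 library per genotype and no strain with intact β-glucosidase genes. The study's title links NCW-1 to cellulase production and to cellobiose uptake. With 1 library each there is no replicate check, and no test between the genotypes was made. The number of cultures or clones behind each library is not given in the sources used here. In bulk RNA, fewer cells of a type and less RNA per cell cannot be told apart.

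The genes with a known name in this group fall into a few areas of cell biology. Histones package DNA into nucleosomes, and their genes are, as a rule, expressed with DNA replication, along with the factors that copy DNA, supply deoxynucleotides and place histones on new strands. Peroxisomes hold β-oxidation of fatty acids in filamentous fungi, and PEX proteins carry enzymes into them. The fungal cell wall is built from glucans and chitin and from proteins that are anchored to the membrane or to the wall.

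The level of ncw-1 followed the labels. ncw-1 (NCU05137) had 435 RPKM in Δ3βG against 2.62 in Δ3βGΔncw-1. The 3 β-glucosidase genes were between 0.342 and 3.41 RPKM in both libraries. No strain that keeps them was there for comparison, so these low values do not check the labels. The libraries were scaled to 20510798 reads (Δ3βG) and 20019350 reads (Δ3βGΔncw-1), totals recovered from the values. They also differed in other ways. The mating genes matA-1 and ccg-4 (the pheromone precursor of mating type A) were listed at 0 in Δ3βG and had 15.4 and 87.9 RPKM in the library labelled Δ3βGΔncw-1, although both labels end in the same letter. The hydrophobin gene eas, a marker of conidia, took 12.8% of summed RPKM in Δ3βG and 0.355% in Δ3βGΔncw-1. Without it, 9 further conidiation markers summed to 1007 and 920 RPKM, with none at 0, but most of these sums was con-8 (487 and 514 RPKM) and con-6 (284 and 157 RPKM). Of the 10, 4 were at least 2-fold lower, namely eas, acon-3 (43.9 and 2.07 RPKM), fl (49.9 and 11.99 RPKM) and con-13 (6.48 and 2.25 RPKM), and ccg-13 (21.7 and 88.3 RPKM) was at least 2-fold higher. Among 8 genes of sexual tissue, which include the member mfa-1, the sums were 1125 and 103 RPKM. Most of the first sum was app, the gene of an abundant perithecial protein, with 969 RPKM in Δ3βG against 4.88 in Δ3βGΔncw-1. The list was mixed in direction, with app and mfa-1 at least 2-fold lower and asd-1 (2.10 and 46.1 RPKM) higher. In that list 2 genes were at 0 in Δ3βG and 1 in Δ3βGΔncw-1. These were the other mating type A genes, matA-2 (0 in both libraries) and matA-3 (0 and 0.269 RPKM). They did not share the level of matA-1 in Δ3βGΔncw-1. Markers of growing hyphae were present in both libraries, with 6739 and 7040 RPKM summed over 10 genes. Most of these sums was hex-1 (3247 and 2970 RPKM) and tef-1 (1962 and 2710 RPKM). The list was mixed in direction and includes the member cot-2 (53.0 and 13.01 RPKM), its only gene at least 2-fold lower. The other 9 were within 2-fold, among them chs-3 (66.8 and 35.7 RPKM). The part of these differences in mating genes and conidial markers in the results below was not tested.

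Across all 5988 genes with at least 10 RPKM in one or the other library, the median log2 ratio was −0.32. The typical gene was thus itself lower in Δ3βGΔncw-1. Of the 2023 genes with at least 50 RPKM, 44.2% were below that median. Relative to that median gene, 73 of the 160 members were still at least 2-fold lower, and 87 were between the median gene and that limit. The rule itself puts every member at 50 RPKM or more in Δ3βG, the library where it is higher. In Δ3βGΔncw-1 49 members reached that level. RPKM of the members ran from 50.1 to 3081 with a median of 86.5 in Δ3βG, and from 13.01 to 1506 with a median of 32.5 in Δ3βGΔncw-1. Together they held 5.96% of summed RPKM in the first library and 2.33% in the second, a fall built in by the choice of members.

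**Figure D1:**
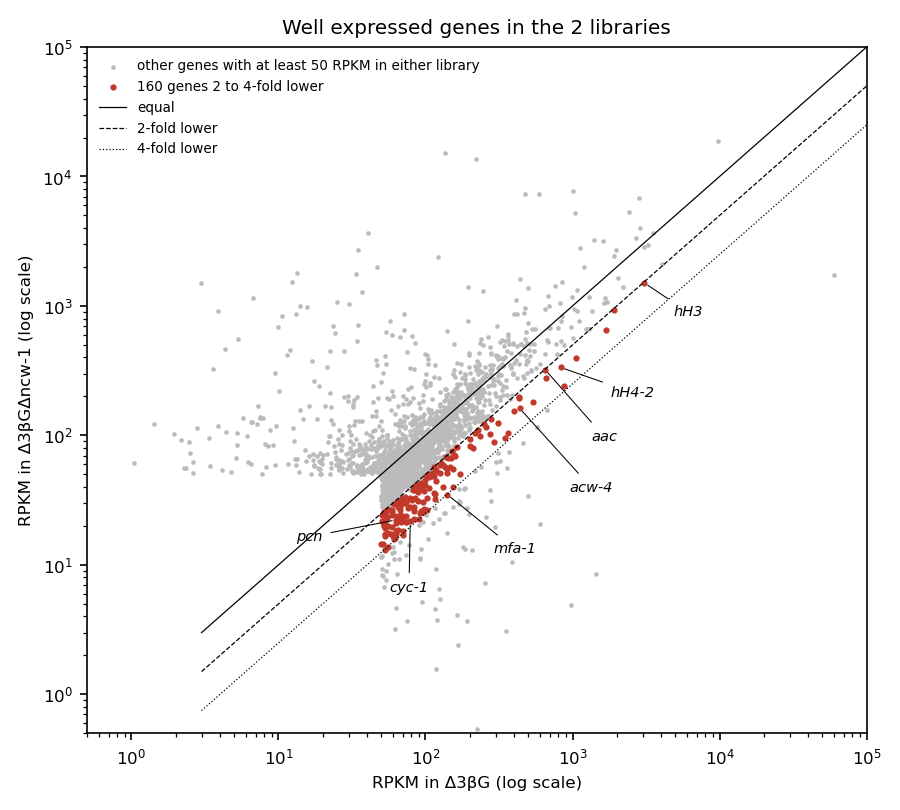
RPKM of well expressed genes, Δ3βG on the horizontal and Δ3βGΔncw-1 on the vertical log axis, 1 point per gene. Of the 2023 genes, those at or near 0 in a library, such as ccg-4 (0 in Δ3βG), are not drawn. Red points are the 160 members and lines mark equal, 2-fold lower and 4-fold lower RPKM. The members form a band along the lower edge of the main cloud, up to hH3 at 3081 and 1506 RPKM.

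Most members lay close to the nearer limit. By fold of RPKM + 1, 89 were 2 to 2.5-fold lower, 28 were 2.5 to 3-fold lower, 25 were 3 to 3.5-fold lower and 18 were 3.5 to 4-fold lower. The 160 genes are thus the flank of a continuous distribution and not a separate peak. Just inside the 2-fold limit was NCU06881, with 52.4 RPKM in Δ3βG against 25.7 in Δ3βGΔncw-1, and just outside it was NCU04718, with 108 and 53.7 RPKM. At the 4-fold limit, NCU02130 (70.6 and 17.2 RPKM) was inside and NCU09272 (101 and 24.5 RPKM) outside. The malate synthase gene acu-9 (218 and 52.8 RPKM) was also just outside. At the 50 RPKM limit, NCU07320 (50.1 and 14.5 RPKM) was inside, and the conidiation regulator gene fl (49.9 and 11.99 RPKM) and nst-1 (49.5 and 19.1 RPKM) were outside. Nothing but the limits separates these genes. The 95% counting interval of the fold, taken as the plain RPKM ratio without the added 1, lay within the 2 to 4-fold range for 126 members. It reached below 2-fold for 22 and reached 4-fold for 12. By the plain ratio NCU02130 (4.12-fold), NCU03466 (4.09-fold), cot-2 (4.07-fold) and mfa-1 (4.02-fold) were themselves past 4-fold. Such intervals cover counting error only and say nothing of variation between cultures.

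**Figure D2:**
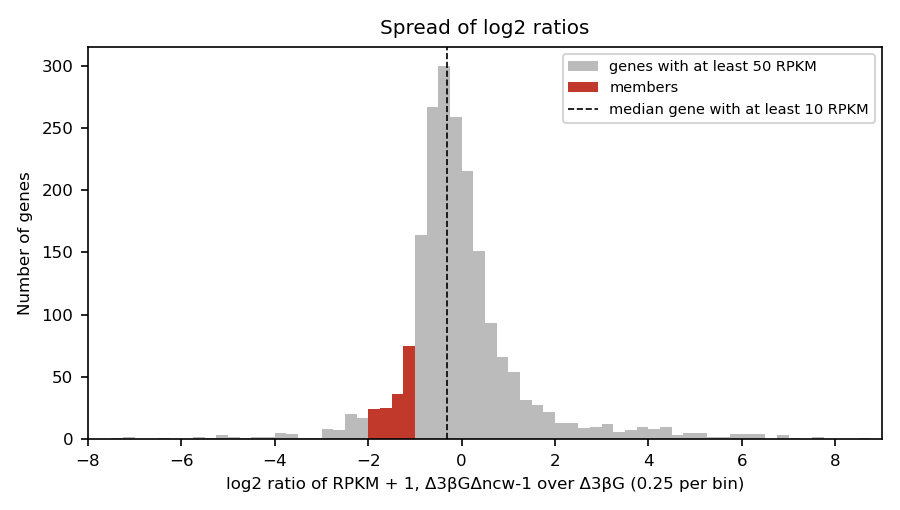
Number of genes with at least 50 RPKM by log2 ratio (Δ3βGΔncw-1 over Δ3βG, RPKM + 1) in bins of 0.25, with the members in red and the median gene (at least 10 RPKM) as a dashed line at −0.32. The members fill the shoulder between −2 and −1, most of them near −1.

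Of the 160 members, 28 carried a gene symbol (17.5%, against 22.9% of all genes with at least 50 RPKM). The largest areas among these were chromatin and DNA replication, with 8 genes, and mitochondria, peroxisomes and metabolism, also with 8. The others were 4 cell wall genes, 6 genes of light responses, signalling or regulation, and 2 of mating or fertility. The areas were drawn up after the values had been seen.

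**Figure D3:**
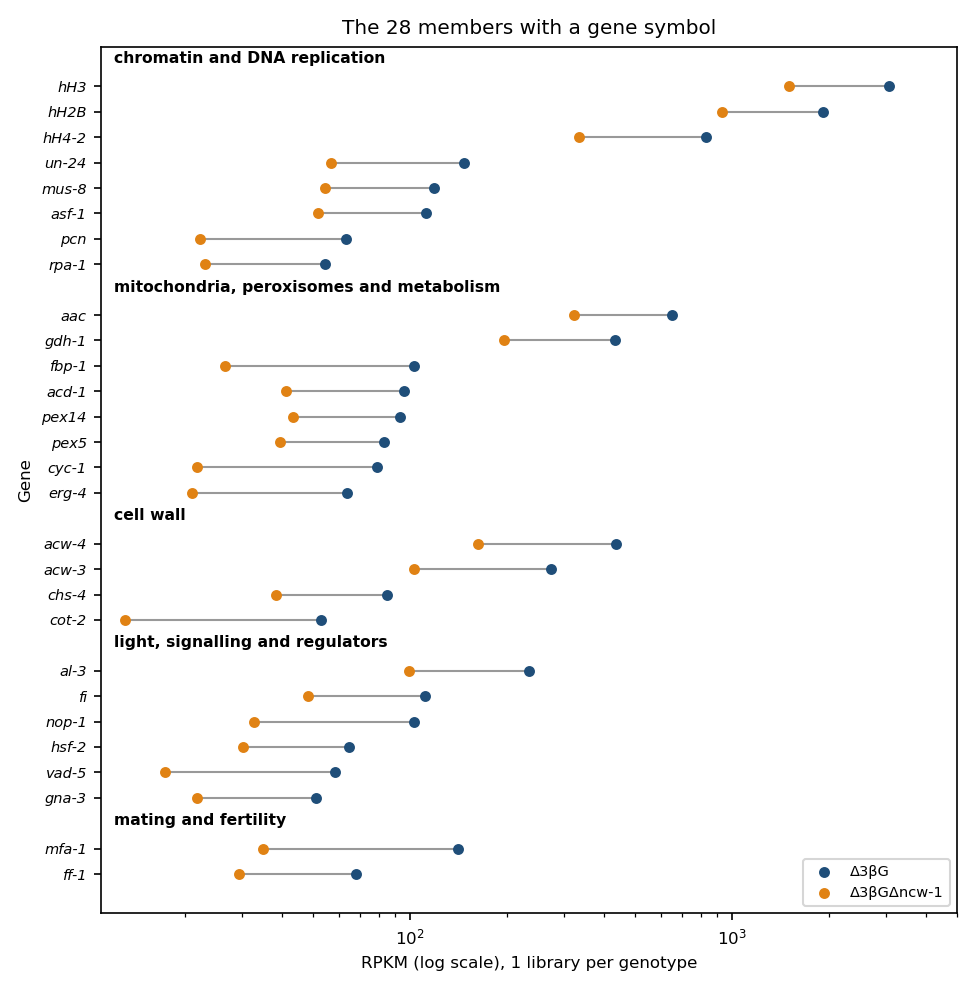
RPKM (log axis) of the 28 members with a gene symbol in Δ3βG (blue) and Δ3βGΔncw-1 (orange), 1 library each, grouped by area. hH3 and hH2B stand far above the rest, hH4-2 (829.7 and 335 RPKM) is close to aac (651 and 322 RPKM), and cot-2, mfa-1 and fbp-1 have the widest gaps.

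Core histone genes were the most abundant named members. hH3 (NCU01635), which encodes histone H3, had 3081 RPKM in Δ3βG against 1506 in Δ3βGΔncw-1 (2.05-fold lower, 95% counting interval 2.02 to 2.07). hH2B (NCU02435), for histone H2B, had 1919.6 and 931 RPKM (2.06-fold lower, 2.03 to 2.09). hH4-2 (NCU00212), 1 of the genes for histone H4, had 829.7 and 335 RPKM (2.48-fold lower, 2.42 to 2.53). These 3 genes made up 20.7% of the members' summed RPKM in Δ3βG and 24.2% in Δ3βGΔncw-1. The genes of their partners were outside the rule. hH2A (NCU02437), for histone H2A, had 1279.7 and 663 RPKM (1.93-fold lower), hH4-1 (NCU01634), which lies next to hH3, had 1629 and 1062 RPKM (1.53-fold lower), and hH1 (NCU06863), for the linker histone, had 1363 and 922 RPKM (1.48-fold lower). The hH4-1 and hH4-2 genes are copies whose reads may not be separated, and the span of hH2B overlaps NCU02434, which had 23.0 and 18.8 RPKM. All 9 histone genes in the table, variants included, had log2 ratios below 0, from −1.30 for hH4-2 to −0.10 for hH2Az (29.3 and 27.2 RPKM), with a median of −0.71. Relative to the median gene, hH2Az was higher and the other 8 were lower. Among all genes with at least 10 RPKM, 69.4% had a log2 ratio below 0.

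Genes that copy DNA and assemble chromatin stood beside the histones. pcn (NCU09239), which encodes the sliding clamp PCNA that holds DNA polymerase on its template, had 63.3 RPKM in Δ3βG against 22.3 in Δ3βGΔncw-1 (2.84-fold lower, 2.59 to 3.12). un-24 (NCU03539), for the large subunit of ribonucleotide reductase, the enzyme that makes deoxynucleotides, had 147 and 57.0 RPKM (2.58-fold lower, 2.49 to 2.67). rpa-1 (NCU03606), for the large subunit of the single-strand binding protein RPA, had 54.5 and 23.1 RPKM (2.35-fold lower, 2.20 to 2.52). asf-1 (NCU09436), for a chaperone of histones H3 and H4, had 112 and 51.7 RPKM (2.16-fold lower, 2.05 to 2.28). mus-8 (NCU09731), for a ubiquitin-conjugating enzyme of DNA damage repair related to yeast Rad6, had 118 and 54.5 RPKM (2.17-fold lower, 2.05 to 2.30). Relative to the median gene, pcn and un-24 were still at least 2-fold lower, and the 3 histone genes, rpa-1, asf-1 and mus-8 were not.

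A list of 12 replication and nucleosome assembly genes, drawn up after the values had been seen, showed how far this reached. Of the 5 with at least 50 RPKM, 4 were members, beside 7.91% of all genes at that level. The fifth was rpa-3 (60.2 and 40.6 RPKM). Of the 11 with at least 10 RPKM, 10 were lower, 6 of them at least 2-fold, and the median log2 ratio was −1.10. Among all genes with at least 10 RPKM, 69.4% had a log2 ratio below 0 and 11.1% were at least 2-fold lower. The assembly factor genes cac-1 (22.9 and 9.85 RPKM) and cac-3 (40.0 and 16.8 RPKM) would have been members but for the 50 RPKM limit. The exception was cac-2, with 40.7 and 41.3 RPKM, a log2 ratio of 0.018 whose sign depends on the scaling. The list was picked with these genes in view, so its counts describe it and support nothing further.

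Peroxisome and mitochondrial genes formed the other large area. pex5 (NCU02960), for the receptor that brings enzymes to the peroxisome, had 83.2 RPKM in Δ3βG against 39.4 in Δ3βGΔncw-1 (2.11-fold lower, 2.01 to 2.22). pex14 (NCU03901), for the docking protein of that receptor, had 92.9 and 43.2 RPKM (2.15-fold lower, 2.03 to 2.28). The span of pex5 overlaps NCU02961, itself at 23.999 and 11.7 RPKM. All 20 pex genes in the table had at least 10 RPKM in one or the other library and a log2 ratio below 0. The median log2 ratio was −0.76. Relative to the median gene, 18 were lower, the exceptions being pex24 (36.8 and 33.5 RPKM) and pex7 (25.1 and 20.6 RPKM). Of the 20 genes, 5 were at least 2-fold lower, both members and 3 genes under 50 RPKM with larger folds. Over all genes with at least 10 RPKM, 69.4% had a log2 ratio below 0, 50% were below the median gene and 11.1% were at least 2-fold lower. The 3 pex genes under 50 RPKM were pex20 (12.7 and 3.41 RPKM, 3.73-fold lower), pex3 (19.4 and 5.78 RPKM, 3.35-fold lower) and pex6 (19.7 and 7.54 RPKM, 2.62-fold lower). acd-1 (NCU02287), for an acyl-CoA dehydrogenase of fatty acid oxidation, had 96.0 and 41.2 RPKM (2.33-fold lower, 2.20 to 2.46). Of the other 5 fatty acid oxidation genes listed, fox-2 had 187 and 104 RPKM, acd-2 had 175 and 115, acd-3 had 61.0 and 56.5, and ecd-1 and ecd-2 were under 10 RPKM in both libraries.

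The mitochondrial members were single genes and not whole complexes. aac (NCU09477), for the carrier that exchanges ADP and ATP across the inner mitochondrial membrane, had 651 RPKM in Δ3βG against 322 in Δ3βGΔncw-1 (2.02-fold lower, 1.97 to 2.07). cyc-1 (NCU01808), for cytochrome c, had 78.8 and 21.8 RPKM (3.62-fold lower, 3.28 to 4.00). All 29 genes of complex I, the NADH dehydrogenase of the respiratory chain, were within 2-fold. So were 1515 of the 2023 genes with at least 50 RPKM. The complex I log2 ratios lay between −0.20 and 0.58, and between 0.12 and 0.90 relative to the median gene. gdh-1 (NCU00461), for the NAD-specific glutamate dehydrogenase that breaks glutamate down, had 432 and 196 RPKM (2.21-fold lower, 2.17 to 2.25). fbp-1 (NCU04797), for the fructose bisphosphatase of gluconeogenesis, had 103 and 26.7 RPKM (3.84-fold lower, 3.57 to 4.14). erg-4 (NCU03006), a gene of the ergosterol series, had 63.5 and 20.96 RPKM (3.03-fold lower, 2.79 to 3.29). Relative to the median gene cyc-1, fbp-1 and erg-4 were still at least 2-fold lower.

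**Figure D4:**
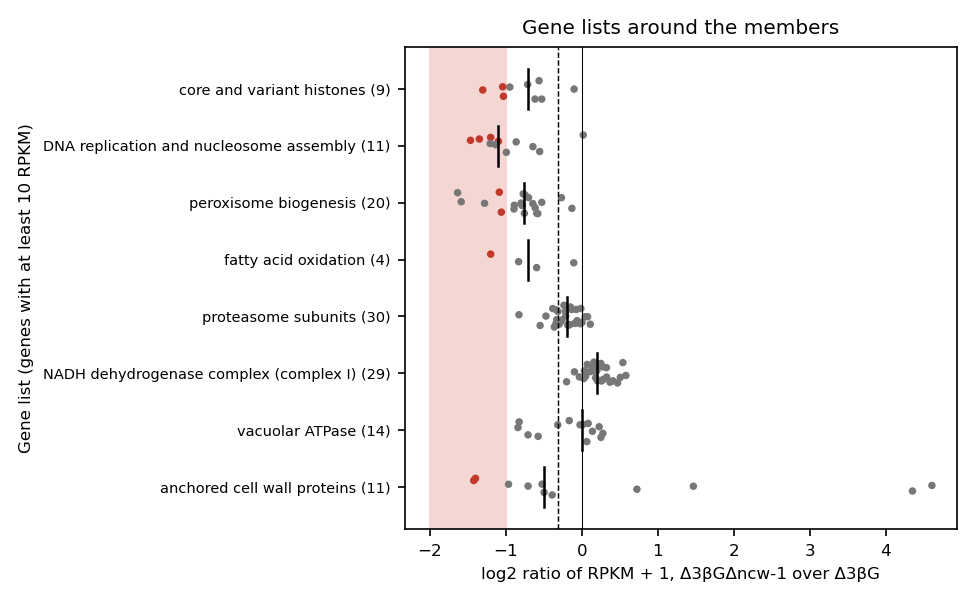
Log2 ratio (Δ3βGΔncw-1 over Δ3βG, RPKM + 1) for genes with at least 10 RPKM in 8 lists drawn up after the values had been seen; red points are members, the shaded band is the 2 to 4-fold range, short bars are list medians and the dashed line is the median gene. The histone, replication and peroxisome lists have medians of −0.71, −1.10 and −0.76, while those of complex I, the vacuolar ATPase and the proteasome are 0.20, −0.0044 and −0.20, which change sign under some scalings (0.52, 0.32 and 0.12 relative to the median gene).

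Cell wall genes were 4 of the members. acw-4 (NCU09263) and acw-3 (NCU05667) encode anchored cell wall proteins. acw-4 had 437 RPKM in Δ3βG against 162 in Δ3βGΔncw-1 (2.69-fold lower, 2.61 to 2.78), and acw-3 had 273 and 103 RPKM (2.66-fold lower, 2.58 to 2.74). Relative to the median gene both were still at least 2-fold lower. The acw family was mixed in direction. Among all genes with at least 50 RPKM, 11.9% were at least 2-fold lower and 13.2% at least 2-fold higher. Of the 11 acw genes, all at that level, 2 were at least 2-fold lower, 3 at least 2-fold higher and 6 neither. The higher ones were acw-8 (24.4 and 618 RPKM), acw-12 (5.73 and 136 RPKM) and acw-5 (497 and 1376 RPKM), and acw-6 (1295 and 663 RPKM) was just short of 2-fold lower. chs-4 (NCU09324), for a chitin synthase, had 84.8 and 38.4 RPKM (2.21-fold lower, 2.12 to 2.30). cot-2 (NCU04189), also called gs-1 and needed for glucan synthase activity, had 53.0 and 13.01 RPKM (4.07-fold lower, 3.79 to 4.38), the lowest level of any member in Δ3βGΔncw-1. The added 1 RPKM in the ratio kept it inside the 4-fold limit.

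Members of light responses, signalling and regulation came from different pathways. nop-1 (NCU10055), for an opsin that binds retinal, had 103 RPKM in Δ3βG against 32.6 in Δ3βGΔncw-1 (3.15-fold lower, 2.96 to 3.36). al-3 (NCU01427), for the geranylgeranyl diphosphate synthase that feeds carotenoid synthesis, had 235 and 99.1 RPKM (2.37-fold lower, 2.29 to 2.45). gna-3 (NCU05206), for a G protein α subunit, had 51.2 and 21.8 RPKM (2.34-fold lower, 2.20 to 2.496). fi (NCU04990), also listed as the serine/threonine kinase gene stk-17, had 111 and 48.3 RPKM (2.30-fold lower, 2.21 to 2.40). Transcription factor genes were the other pair. vad-5 (NCU06799), named for vegetative asexual development, had 58.6 and 17.3 RPKM (3.38-fold lower, 3.21 to 3.56), and hsf-2 (NCU08480), of the heat shock factor family, had 64.4 and 30.3 RPKM (2.13-fold lower, 2.02 to 2.25). Of this area, nop-1 and vad-5 were still at least 2-fold lower than the median gene.

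The mating and fertility members sat beside the differences in matA-1 and ccg-4 between the libraries. mfa-1 (NCU16992), for the pheromone precursor of mating type a, had 141 RPKM in Δ3βG against 34.98 in Δ3βGΔncw-1 (4.02-fold lower, 3.72 to 4.35). It was lower in the library in which matA-1 and ccg-4 were detected. ff-1 (NCU01543), named for female fertility, had 67.7 and 29.5 RPKM (2.30-fold lower, 2.21 to 2.40). Whether these values follow ncw-1 or a possible mating-type difference, which the labels do not give, cannot be told apart here.

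Of the 10 members with the highest RPKM in Δ3βG, 5 had no gene symbol. NCU01835 had 1699 RPKM in Δ3βG against 656 in Δ3βGΔncw-1 (2.59-fold lower, 2.55 to 2.63). NCU08847 had 1063 and 395 RPKM (2.69-fold lower, 2.66 to 2.73), and NCU02307 had 871 and 241 RPKM (3.61-fold lower, 3.56 to 3.67). NCU08713 had 663 and 278 RPKM, and NCU01483 had 543 and 180.3 RPKM. NCU02307 had the largest fold of these 10. What these 5 genes encode is not annotated in the table used here. The 132 members without a symbol had a median fold of 2.51, against 2.35 for the 28 with one, and 62 of them were still past 2-fold relative to the median gene, against 11 of the 28.

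Counts over 25 lists taken from gene symbols showed where members were few. Beside 7.91% of all genes with at least 50 RPKM, and a median log2 ratio of −0.21 at that level, 14 lists held at least 1 member and 11 held none. Members were 3 of 8 histones and chromatin genes (median log2 ratio −0.80). The pattern of that list missed the member hH4-2 and also hH4-1, which was not a member. Members were also 2 of 6 DNA repair and replication genes (−0.68) and 2 of 5 mating and sexual development genes (−1.98). In the same way they were 2 of 12 secretion and vesicle traffic genes (−0.60, both pex genes), 2 of 11 clock, light and carotenoid genes (−0.31), and 2 of 14 G protein, cAMP and fusion genes (0.022). They were 3 of 24 cell wall genes (−0.51), 1 of 8 gluconeogenesis and glyoxylate cycle genes (−0.50), 1 of 3 sterol and lipid genes (0.61), and 1 of 13 tricarboxylic acid cycle and glycolysis genes (0.25). The shares were below 7.91% in the last of these and in 4 larger lists. These were 1 of 38 respiratory chain and ATP synthase genes (0.19), 1 of 18 cytoskeleton, polarity and septation genes (−0.53), 2 of 47 kinases and phosphatases (−0.37) and 2 of 54 transcription factors (−0.17). The gene cot-2 entered the cytoskeleton and kinase lists by its symbol alone. Some members were counted in more than 1 list. The gluconeogenesis gene fbp-1 was the only member in both the gluconeogenesis list and the tricarboxylic acid cycle and glycolysis list. The opsin gene nop-1 was counted in both the light and the G protein lists. No member came from glycoside hydrolases, esterases and lyases (33 genes, median log2 ratio 3.24), ion pumps and the vacuolar ATPase (35, −0.024), amino acid synthesis (18, 0.010), conidiation and clock-controlled genes (13, 0.076), or heat shock and oxidative stress (11, −0.075). Nor did any come from nitrogen, phosphorus and sulfur regulation (8, −0.21), autophagy (4, −0.64), nucleotide and vitamin synthesis (4, −0.54), mitochondrial import (4, 0.15), cytosolic ribosomal proteins (3, −0.36) or RNA silencing (1, −0.68). Several lists also held genes past the 4-fold limit. Counting every gene at least 2-fold lower, beside 11.9% of all genes with at least 50 RPKM, there were 7 of 54 transcription factors, 3 of 13 conidiation and clock-controlled genes, 4 of 5 mating genes, 3 of 8 gluconeogenesis genes, 4 of 24 cell wall genes, 1 of 4 nucleotide and vitamin genes and 2 of 33 glycoside hydrolases. A list with few members was thus not always one with few lower genes. Many of these lists hold few genes, so a share can turn on 1 gene, and the sign of medians near 0 depends on the scaling.

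Gene length was not used by the rule. The median gene span was 2540 bases for the members and 2361 bases for all genes with at least 50 RPKM. The share of genes that were members ranged from 6.30% at spans of 1000 to 2000 bases to 8.97% at 2000 to 3000 bases, with no steady trend with length. The gene model behind the RPKM was the whole span, as in a gene without introns, for 11.6% of members and for 8.45% of all genes with at least 50 RPKM, among those with a single recovered length. By level, which the rule did use, members were 9.11% of genes whose higher value was 50 to 100 RPKM and between 6.16% and 6.67% of those above. Spans overlapped another gene for 29.4% of members and 26.8% of all genes with at least 50 RPKM, and strand use in counting is not given in the sources used here.

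Members were mostly scattered along the chromosomes. Of the 160, 153 had no member next to them, 2 runs held 2 members and 1 run held 3. The run of 3 was NCU01550 (75.6 and 27.3 RPKM), NCU01549 (52.9 and 25.8 RPKM) and NCU01548 (281 and 134 RPKM). On one side it met NCU01551 (20.0 and 9.54 RPKM), with a log2 ratio of −0.996, and on the other rpn-8 (86.8 and 89.4 RPKM). The other runs were mus-8 with NCU09732 (97.3 and 37.1 RPKM), and NCU06881 with NCU06882 (85.2 and 32.9 RPKM). Of the neighbours of members with at least 50 RPKM, 7 of 73 were members themselves (9.59%), beside 7.61% for the neighbours of all genes at that level. The 212 neighbours with at least 10 RPKM had a median log2 ratio of −0.47, 12.7% of them were at least 2-fold lower, and 3.30% were at least 2-fold higher. Among 2435 neighbours of all genes with at least 50 RPKM, the median was −0.32, with 11.3% lower and 8.21% higher. Of 101 neighbours of genes at least 4-fold lower, 31.7% were themselves at least 2-fold lower. These sets share genes, and no test was made.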

How the data were processed

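RNA was sequenced from mycelia of 2 genotypes, 1 library each. TopHat2 2.0.8b, HTSeq 0.5.4p2 and DESeq 1.5.1 are listed, per the submitters' processing notes, without saying what each did. For the genome build, annotation and strand use, the sources used here give nothing. The values deposited by the authors are RPKM, with a column for each library, matched to samples by the identifier in the column name, with 0 columns unused. Of 9730 locus tags, 9729 matched the reference table of assembly NC12, used for symbols and, through its gene coordinates, for spans, neighbours and overlaps. No coordinates are printed, sequences and product names were not used here, and 11 lists that needed product names were not run.

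Whole reads were recovered from RPKM, the library totals and a model length from 50% of the span up to its full length (tolerance 1e-06 reads plus 1e-09 of the read number), for all 160 members, 147 of them with a single length. Exact Clopper-Pearson intervals at 95% are conditional on the summed reads, and cover counting error only. The recovery of reads and the placing of genes by the rule were tested on simulated data. The changed genes there were set midway between the fold limits and above the 50 RPKM limit. Neither the placing of genes near the limits nor the intervals were tested in this way. Python 3.11.15, numpy 2.4.6, pandas 2.3.3 and scipy 1.17.1 were used.

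Members and lists were chosen with earlier results of these data known, and 8 lists were added after the values had been seen. The genes named are the deleted genes, all members with a symbol, the 10 with the highest RPKM in Δ3βG, genes nearest each limit, runs of at least 3 neighbouring members, and list members. Other genes of the added lists, the shorter runs, marker genes, matA-1, ccg-4 and genes overlapping or next to members were named after their values were seen. Alternatives were pseudocounts, minimum levels and scalings.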

Additional observations from a re-analysis of the deposited data

How the results depend on the processing

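The number of genes 2 to 4-fold lower was 160 as reported and 161 and 152 with pseudocounts of 0.1 and 5 RPKM, 176 with RPKM scaled to equal sums, and 126 when the counting interval had to lie inside the range. Centring on the median gave 94 and scaling by a trimmed mean also gave 94, of which 73 and 74 were among the 160. With sums made equal after leaving out eas, an alternative chosen after seeing the data, it was 296, of which 136 were among the 160. Minimum levels of 10, 100 and 0 RPKM gave 537, 63 and 709. For genes at least 2-fold lower, 240 as reported became 153 and 154 under the 2 centrings, 400 without eas, and 664, 116 and 844 with those minimum levels. For genes 2 to 4-fold higher, 134 as reported became 188 under both centrings, 83 without eas, and 280, 68 and 358 with those minimum levels. Median centring and the trimmed mean changed log2 ratios by 0.32 and 0.31, the same for every gene, after the added 1 RPKM. Equal sums and equal sums without eas changed them by −0.057 and −0.25, before the added 1 RPKM. The minimum levels by their construction change how many genes enter. No paired analysis was possible because each genotype has 1 library. The members had 560 to 84669 reads in Δ3βG and 218 to 40389 in Δ3βGΔncw-1. At this depth, 22 counting intervals of the plain RPKM ratio crossed 2-fold and 12 crossed 4-fold.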
